A study of Homo sapiens with 24 samples.

Results

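The clustered histone genes were followed across MV4-11 and KG-1a cells treated with 8CA or 8AA. They were taken as every gene of the deposited count table whose symbol begins HIST1H, HIST2H, HIST3H or HIST4H, which gave 69 genes of 23354. Of these, 55 belong to the HIST1 cluster on chromosome 6, 10 to HIST2, 3 to HIST3 and 1 to HIST4. By symbol they are 6 genes of the linker histone H1, 16 of histone H2A, 20 of H2B, 13 of H3 and 14 of H4. Pseudogenes were not taken out, and HIST2H2BC, for example, is annotated as one. RNA was sequenced from both lines, which are established human acute myeloid leukemia lines labelled WT, in 12 groups of 2 libraries (A and B). Each line was left untreated or given 1 µM 8CA (8-chloro-adenosine) or 1 µM 8AA (8-amino-adenosine) for 8 h or 24 h, and the untreated groups carry the same hours in their titles. Both drugs are adenosine analogs, with a chlorine atom in 8CA and an amino group in 8AA at the same position of the base. Nothing in the labels says that A and B were separate cultures, so p-values measure only the spread between these libraries.

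Canonical histone genes lie in clusters and are transcribed in S phase, when newly copied DNA has to be packed into nucleosomes. Their mRNAs are unlike other mRNAs: they end just after a short stem-loop that is bound by SLBP, and they carry no poly(A) tail. Some of the same genes can also be read past the stem-loop to a poly(A) signal, which gives a polyadenylated mRNA that is seen mainly in cells that have stopped dividing. The replication-independent histones, such as H2A.Z and H3.3, have ordinary polyadenylated mRNAs.

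The stem-loop and the downstream poly(A) signal decide which of these mRNAs a gene can give, so both are shown for the genes the results turn on. In the GENCODE release 29 transcripts (GRCh38), 29 of the 69 genes had a transcript with the stem-loop pattern. Counted by transcript and not by gene, 1.17% of all 206694 held it, and the share of all genes is not given here. Of the 29 genes, 22 had a transcript running on at least 100 bases past the stem-loop and 20 at least 300 bases. The stem-loops, with the stem and loop in capitals, are written as DNA.
HIST3H2A: ataaaGGCTCTTTTCAGAGCCaccta
HIST1H2AC: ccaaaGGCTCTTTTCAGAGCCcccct
HIST2H2BE: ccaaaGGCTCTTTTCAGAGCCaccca
HIST1H2BH: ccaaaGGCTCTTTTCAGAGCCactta
HIST1H3E: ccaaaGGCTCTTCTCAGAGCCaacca
An annotated transcript ran 390 bases past this element in HIST3H2A, 1128 in HIST1H2AC, 1729 in HIST2H2BE, 1640 in HIST1H2BH and 1862 in HIST1H3E.

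A poly(A) signal (AATAAA or ATTAAA) stood within 40 bases of an annotated transcript end in 21 of the 69 genes. The ends of the same 5 genes are shown with that signal in capitals.
HIST3H2A: gatttatctgatATTAAAagtatttatgat
HIST1H2AC: ctggcatgaggtAATAAAaggtaatgcaaa
HIST2H2BE: gctattgttattAATAAAgttaccaattaa
HIST1H2BH: aaataattttttAATAAAaggtttttttaa
HIST1H3E: gttgagatgtaaAATAAAagattactgaac
On the annotation these genes hold both the stem-loop and a downstream signal. Among the 5, only HIST1H3E also had an annotated transcript that ended just after the stem-loop, 5 bases past it. The count table gives 1 number for each gene and does not separate reads by end. Its counted exon is 0.495 kb in HIST3H2A, 0.545 in HIST1H2AC, 0.424 in HIST1H2BH and 0.461 in HIST1H3E. Their longest annotated transcripts have 895, 1668, 2060 and 2679 bases, so the counts leave part of these transcripts out. For HIST2H2BE the lengths are 2.222 kb and 2194 bases. Which part is left out was not checked, since the deposited coordinates were not matched to GRCh38. Several other genes have only a short annotated transcript with neither element, such as HIST1H2BK (381 bases) and HIST2H2AC (390 bases). Sequence beyond an annotated end was not searched, so a missing element there is a limit of the annotation.

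Several of these genes stand head to head and share a promoter. Of 11 such pairs, 4 had both genes above the filter on low counts. The pair HIST2H2AC and HIST2H2BE is shown because its members moved in opposite directions below. The 235 bases between their starts (RefSeq, GRCh38.p14, chr1:149886683-149886917, written on the strand of HIST2H2AC) hold the octamer ATGCAAAT, TATAAA near each start and CCAAT, all in capitals and on either strand.
HIST2H2AC and HIST2H2BE: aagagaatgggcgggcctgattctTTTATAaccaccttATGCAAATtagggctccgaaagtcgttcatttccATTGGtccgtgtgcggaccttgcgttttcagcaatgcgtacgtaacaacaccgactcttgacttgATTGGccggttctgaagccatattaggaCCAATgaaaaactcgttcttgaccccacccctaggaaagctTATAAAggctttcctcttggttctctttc
The octamer was present in 26 of the 58 histone promoters matched through the gene identifier, of 250 bases each, against 1.6% of 35116 promoters of the same length. By family it was in 11 of 13 H2A and 14 of 18 H2B promoters. Partners of a head-to-head pair share 193 to 247 of these bases, so 1 match can count for both. CCAAT was in 49 of 58, against 32.0% of all promoters, and TATAAA in 38 of 58, against 10.7%. The H1 box AAACACA was in 6 of 6 H1 promoters, against 4.8% of all. Every motif was searched on both strands, and a match is a description of the letters.

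The clustered histone genes were a very small part of each library. Library totals ran from 18633963 to 24520078 counts. The 69 genes together took 932 to 1541 reads in an MV4-11 library, which is 0.00458% to 0.00638% of all counts, and 531 to 946 reads in a KG-1a library, or 0.00283% to 0.00445%. By comparison, the replication-independent H2AFZ alone stood at 465 CPM (reads scaled to library size) in untreated MV4-11 and 433 in untreated KG-1a at 24 h. Whether the libraries were made by poly(A) selection is not given in the sources used here. RNAs that carry no poly(A) tail were read against this. Of 12 such non-coding RNAs looked for, 5 were in the table, and the median CPM of RMRP, part of an RNA processing enzyme, was 1.31 in MV4-11 and 0.726 in KG-1a. RPPH1, the RNA of RNase P, stood at 1.31 and 0.161.

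Of the 69 genes, 9 were at 0 in every library. They include the duplicated copies HIST2H2AA4, HIST2H3C and HIST2H4A. In each line 29 genes passed the filter on low counts and were tested, 26 of them in both lines, so that 32 were tested in at least 1 line. The other 37 never exceeded 13 reads in a library. The tested genes included 4 of 6 H1, 6 of 16 H2A, 12 of 20 H2B, 4 of 13 H3 and 6 of 14 H4 genes. In bulk RNA, fewer cells expressing a gene and less RNA per cell cannot be told apart.

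The cell lines carried most of their markers. HOXA9, chosen as a marker of MV4-11, went the other way, at 7.11 to 9.4 CPM in MV4-11 and 22.3 to 27.8 in KG-1a. FLT3 ranged from 426 to 621 CPM in MV4-11 and from 0.159 to 1.32 in KG-1a, while CD34 was at most 0.175 in MV4-11 and 325 to 629 in KG-1a. PTPRC, LYZ, CD33 and MEIS1 were at least 80.9 CPM in MV4-11, whereas LYZ, CD33 and MEIS1 were at most 1.33 in KG-1a. Of the markers of other cell types, HBB, EPCAM, COL1A1 and ALB were at most 1.0 CPM in every library. The T cell gene CD3E was at 0 in MV4-11 and at 22.2 to 78.3 in KG-1a. In KG-1a it rose with 8AA, by 1.00 on the log2 scale at 24 h (adjusted p = 1.81e-07) and 0.31 at 8 h (adjusted p = 0.0233), and its 8CA values of −0.20 and −0.08 did not pass. Its part in the KG-1a results was not tested. The replicate pair of 8AA-treated KG-1a at 24 h stood apart from the other pairs: its chi-square per degree of freedom was 12.3, against 1.43 to 5.2 in the others. For that group values at 24 h are also given without 1 of its libraries for the called genes, the count, the median and most sums.

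Levels per kilobase of exon were led by a few genes. HIST1H2BK, which encodes an H2B, averaged 21.4 CPM per kb in MV4-11 and 8.73 in KG-1a. HIST3H2A, the H2A gene of the small HIST3 cluster, followed with 10.0 and 2.33, and HIST1H1C, a linker histone gene, with 8.37 and 3.68. HIST1H2BH stood at 5.13 and 2.98, HIST1H1E at 2.77 and 2.37, and HIST1H2BN at 2.74 and 1.92. HIST1H2BK alone took 30.9% of the reads of all 69 genes in MV4-11 and 21.1% in KG-1a. Its deposited model spans 8.565 kb with an intron, on the minus strand of chr6:27106073-27114637, and encloses HIST1H4I on the plus strand. These are the table's own coordinates: none of the 69 genes has a start or end as in GRCh38, and hg19 is the other build in the submitters' processing notes. HIST1H4I had at most 18 reads in a library, where HIST1H2BK had 139 to 527. Of the 50-base words of HIST1H2BK, 74.1% occur in other H2B genes, so its reads may have been shared with them.

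**Figure D1:**
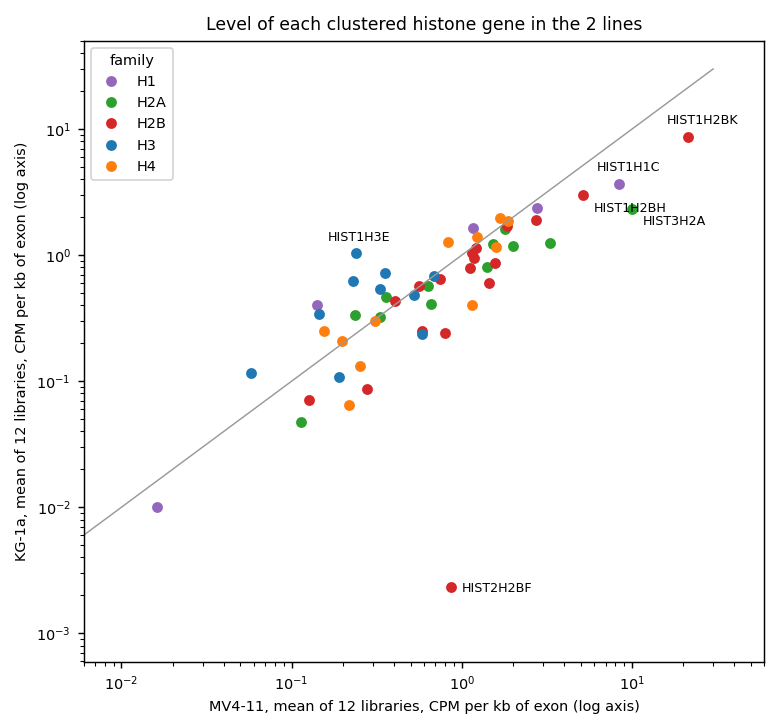
Mean level of the 56 clustered histone genes with a count in both lines, MV4-11 on the horizontal and KG-1a on the vertical axis, both in CPM per kb of exon on log scales. The line marks equal levels; HIST1H2BK and HIST3H2A, at 21.4 and 10.0 CPM per kb in MV4-11, lie below it.

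At 24 h clustered histone genes passed the test in both directions. In MV4-11, 8CA raised 4 and lowered 7 of the 29 tested genes, and 8AA raised 4 and lowered 2. In KG-1a, 8CA raised 4 and lowered 2, and 8AA raised 4 and lowered 1. A gene was counted when the adjusted p of the edgeR quasi-likelihood test was below 0.05. Among all genes tested, the shares that rose and fell were 21.2% and 22.7% for 8CA and 13.9% and 15.3% for 8AA in MV4-11, and 23.4% and 24.0% for 8CA and 25.4% and 26.6% for 8AA in KG-1a. Among tested histone genes the log2 fold change had a median of −0.21 and −0.10 for 8CA and 8AA in MV4-11 and 0.14 and 0.03 in KG-1a, against 0.00 to 0.01 over all genes. When 10 counts were required in every library, the first of these was 0.11. DESeq2 called 4, 4, 1 and 3 genes in the 4 comparisons. The 11 calls for 8CA in MV4-11 became 6 without untreated library B and 7 without 8CA library A, and the 6 for 8CA in KG-1a became 1 without untreated library B and 2 without either 8CA library. For 8AA in KG-1a, where CD3E was higher too, 5 genes were called without either of its libraries, 3 higher and 2 lower without A and 4 higher and 1 lower without B, with medians of 0.12 and 0.19. Both drugs were compared with the same untreated libraries in each line, so their changes are not independent of each other. Over all 8 comparisons of a drug with untreated cells, 7 genes rose in at least 1, 10 fell in at least 1, 15 passed in neither direction and 0 passed in both directions. The matching shares of all genes over the 8 comparisons are not given here.

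**Figure D2:**
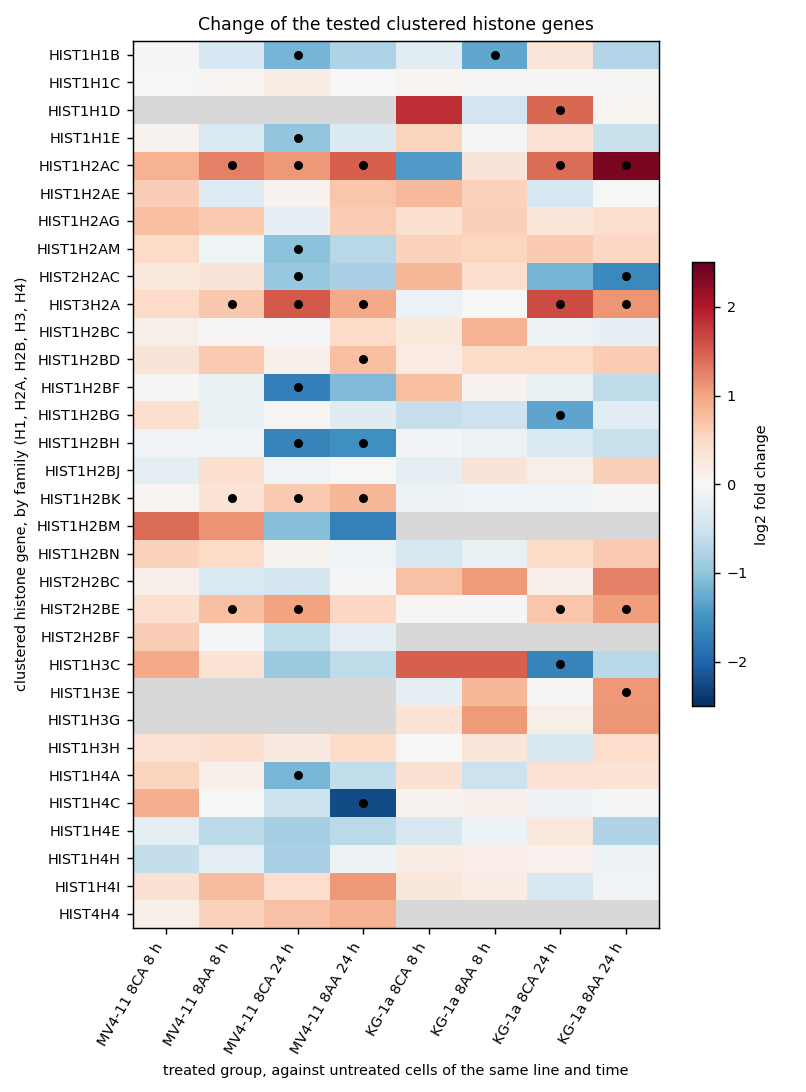
Log2 fold change against untreated cells of the 32 tested clustered histone genes (rows) in 8 comparisons (columns), with red higher and blue lower. A black dot marks an adjusted p below 0.05 and grey a gene not tested in that line; the rows of HIST3H2A and HIST1H2AC carry dots in all 4 comparisons at 24 h.

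Among the H2A genes, HIST3H2A and HIST1H2AC rose with both drugs in both lines at 24 h. No other clustered histone gene was called in the same direction in all 4 of these comparisons. The share of all genes called in this way is not given here. Both encode H2A, the histone that pairs with H2B in the nucleosome. HIST3H2A lies at chr1:228645066-228645560 on the minus strand and HIST1H2AC at chr6:26124374-26124918 on the plus strand, in the table's coordinates, and each has a single exon.

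HIST3H2A had 53 and 75 reads in untreated MV4-11 libraries A and B at 24 h, 198 and 210 after 8CA, and 135 and 112 after 8AA. The KG-1a libraries held 18 and 12 reads untreated, 53 and 48 after 8CA, and 41 and 34 after 8AA. Every treated library was above both untreated libraries of its line, and the 8CA libraries were above the 8AA libraries. In CPM the MV4-11 level went from 3.02 ± 0.652 to 8.85 ± 0.859 with 8CA and 5.88 ± 0.469 with 8AA (SD, n = 2). The KG-1a level went from 0.749 ± 0.173 to 2.33 ± 0.0617 and 1.62 ± 0.023. The log2 fold changes were 1.52 (SE 0.16, adjusted p = 3.05e-06) and 0.94 (SE 0.18, adjusted p = 0.000962) in MV4-11, and 1.62 (SE 0.26, adjusted p = 9.53e-05) and 1.10 (SE 0.27, adjusted p = 0.00315) in KG-1a, for 8CA and 8AA. All 4 calls held under every alternative tried, also without either library of the KG-1a 8AA pair, where the change was 1.09 and 1.12.

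HIST1H2AC was a lower gene. It had 15 and 15 reads in untreated MV4-11 at 24 h, 35 and 36 after 8CA, and 42 and 44 after 8AA. KG-1a libraries had 7 and 4 reads untreated, 14 and 18 after 8CA, and 30 and 36 after 8AA. In both lines the untreated, 8CA and 8AA libraries formed 3 sets of values that did not overlap, in that order. The log2 fold changes were 1.09 (SE 0.27, adjusted p = 0.00377) and 1.5 (SE 0.26, adjusted p = 0.000436) in MV4-11, and 1.40 (SE 0.49, adjusted p = 0.0278) and 2.35 (SE 0.42, adjusted p = 0.000225) in KG-1a. Without library A or B of the KG-1a 8AA pair the last change was 2.6 and 2.10, and it still passed. The 8CA call in KG-1a was lost without untreated library A (adjusted p = 0.0578), without untreated library B (0.163), without 8CA library B (0.159) and in DESeq2 (0.0867), and the 8CA call in MV4-11 in DESeq2 (0.0614).

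None of the other 4 tested H2A genes passed as higher at 24 h. HIST2H2AC had 26 and 35 reads in untreated MV4-11, 17 and 18 after 8CA, and 15 and 20 after 8AA. The KG-1a reads were 9 and 18 untreated, 8 and 5 after 8CA, and 6 and 4 after 8AA. Each treated library was below both untreated libraries. It fell with 8CA in MV4-11 (log2 fold change −0.94, adjusted p = 0.0282) and with 8AA in KG-1a (−1.62, adjusted p = 0.0264), while −0.80 for 8AA in MV4-11 and −1.16 for 8CA in KG-1a did not pass. These 2 calls were lost in DESeq2 (adjusted p = 0.0977 and 0.0628). The first was also lost without untreated library B (0.192), 8CA library A (0.141) or 8CA library B (0.0679), and the second without untreated library B (0.294) or 8AA library B (0.0708). Of the 50-base words of HIST1H2AM, 86.3% occur in other genes, which are H2A genes and, by symbol, the H3 gene HIST1H3J. HIST1H2AM fell with 8CA in MV4-11 by 1.03 on the log2 scale (adjusted p = 0.0193). It did not pass without untreated library A (0.147) or 8CA library B (0.166), or in DESeq2 (0.123).

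**Figure D3:**
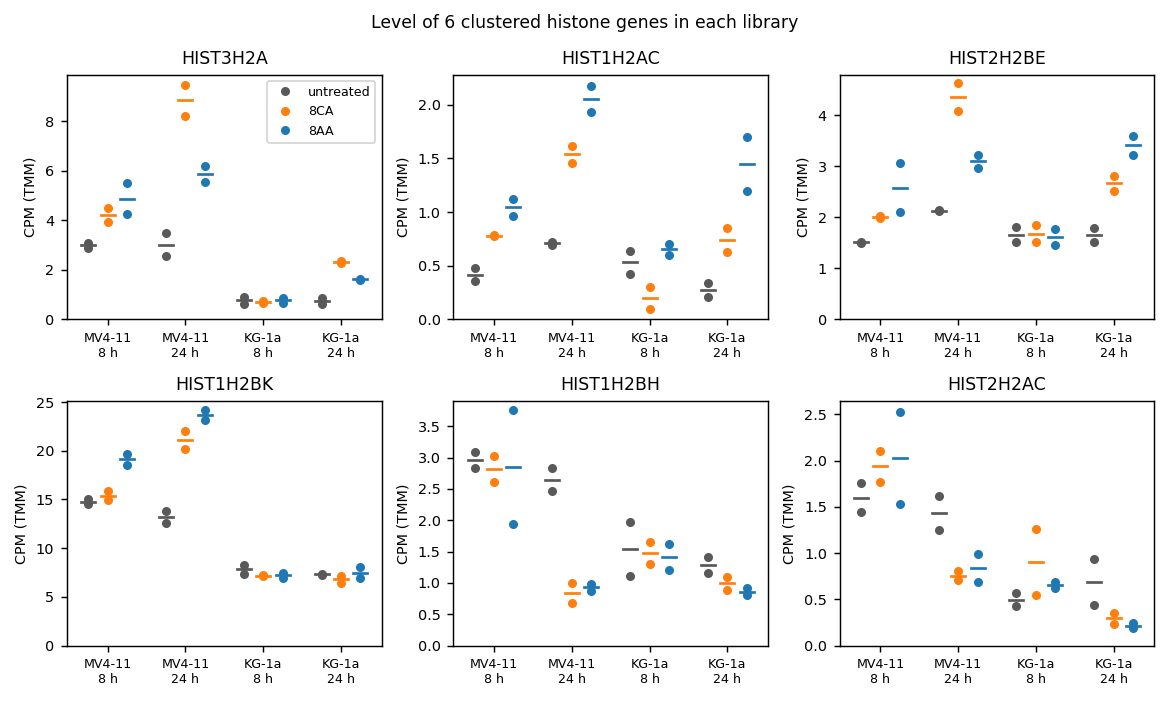
TMM-scaled CPM of 6 clustered histone genes in each of the 24 libraries, in 12 groups on the horizontal axis; points are libraries and bars the mean of 2. The 24 h points of HIST3H2A and HIST1H2AC lie above the untreated points in both lines, whereas those of HIST1H2BK do so in MV4-11.

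Of the H2B genes, HIST2H2BE and HIST1H2BK rose. HIST2H2BE (chr1:149856011-149858232, minus strand, with a 2.222 kb exon) had 44 and 46 reads in untreated MV4-11 at 24 h, 98 and 103 after 8CA, and 70 and 60 after 8AA. In KG-1a the reads were 37 and 29 untreated, 63 and 53 after 8CA, and 90 and 68 after 8AA. All treated libraries were above the untreated ones, with 8CA higher than 8AA in MV4-11 and the reverse in KG-1a. It rose by 1.01 on the log2 scale with 8CA in MV4-11 (SE 0.18, adjusted p = 0.000356), by 0.69 with 8CA in KG-1a (SE 0.21, adjusted p = 0.0129) and by 1.04 with 8AA in KG-1a (SE 0.20, adjusted p = 0.000371). Without library A or B of the KG-1a 8AA pair the last change was 0.95 and 1.12, and it still passed. The 8AA change in MV4-11 was 0.52 (adjusted p = 0.0584) and did not pass. The 8CA call in KG-1a was lost in DESeq2 (adjusted p = 0.0871), without untreated library B (0.0976) and without 8CA library A (0.0886).

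HIST1H2BK had 260 and 297 reads in untreated MV4-11 at 24 h, 486 and 489 after 8CA, and 527 and 467 after 8AA. The 6 KG-1a libraries had 152 and 139 reads untreated, 143 and 151 after 8CA, and 173 and 170 after 8AA. In MV4-11 the treated libraries were all above the untreated ones, and in KG-1a the scaled levels of 7.30 ± 0.0721, 6.79 ± 0.557 and 7.48 ± 0.790 CPM (SD, n = 2) were close together. It rose in MV4-11 by 0.66 with 8CA (SE 0.08, adjusted p = 1.84e-05) and 0.83 with 8AA (SE 0.08, adjusted p = 6.87e-06). The KG-1a changes were −0.11 with 8CA (95% interval −0.36 to 0.15) and 0.03 with 8AA (−0.22 to 0.28), the latter 0.13 and −0.08 without 8AA library A or B. The response differed between the lines: KG-1a minus MV4-11 was −0.79 for 8CA (adjusted p = 0.000598) and −0.82 for 8AA (adjusted p = 0.000124).

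HIST1H2BH, with an annotated poly(A) signal like HIST2H2BE, moved the other way. It had 51 and 61 reads in untreated MV4-11 at 24 h, 24 and 15 after 8CA, and 19 and 20 after 8AA. For KG-1a these were 24 and 27 reads untreated, 20 and 23 after 8CA, and 23 and 17 after 8AA. The MV4-11 groups were far apart and the KG-1a reads lay close together. It fell in MV4-11 by 1.66 with 8CA (SE 0.31, adjusted p = 0.000487) and by 1.52 with 8AA (SE 0.31, adjusted p = 0.00188), and both calls held under every alternative tried. The KG-1a values of −0.37 and −0.56 did not pass. Of the other H2B genes, HIST1H2BD rose with 8AA in MV4-11 (0.75, adjusted p = 0.0349), HIST1H2BF fell with 8CA in MV4-11 (−1.71, adjusted p = 0.0433) and HIST1H2BG fell with 8CA in KG-1a (−1.32, adjusted p = 0.035). These 3 calls did not hold without any 1 of the 4 libraries compared (adjusted p = 0.05 to 0.243, 0.0671 to 0.228 and 0.0705 to 0.146). HIST1H2BN was called in none of the 8 comparisons, with 24 h values of 0.09, −0.10, 0.46 and 0.66 for 8CA and 8AA in MV4-11 and then in KG-1a.

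The linker histone genes, whose products bind the DNA between nucleosomes, had 3 calls at 24 h, all with 8CA. HIST1H1C, the highest of them, had 117 and 120 reads in untreated MV4-11 at 24 h, 145 and 153 after 8CA, and 121 and 115 after 8AA. The KG-1a libraries had 50 and 71 untreated, 55 and 79 after 8CA, and 86 and 58 after 8AA. Its log2 fold change was 0.18 and −0.01 in MV4-11, with 95% intervals of −0.07 to 0.43 and −0.27 to 0.25, and 0.03 and 0.03 in KG-1a, with intervals of −0.48 to 0.53 and −0.47 to 0.53. HIST1H1E had 56 and 49 reads in untreated MV4-11, 38 and 21 after 8CA, and 49 and 33 after 8AA, and 32 and 46, 61 and 48, and 29 and 32 in KG-1a. It fell with 8CA in MV4-11 (−0.98, adjusted p = 0.0478), as did HIST1H1B (−1.17, adjusted p = 0.0479). HIST1H1D was tested in KG-1a, where it had 4 and 5 reads untreated and 12 and 15 with 8CA and rose by 1.44 (SE 0.54, adjusted p = 0.0373). The calls of HIST1H1E, HIST1H1B and HIST1H1D were each lost on leaving out any 1 of the 4 libraries compared (adjusted p = 0.0524 to 0.263, 0.0981 to 0.197 and 0.0589 to 0.185).

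Few H3 and H4 genes were high enough to test. Among H3 genes, HIST1H3E rose with 8AA in KG-1a, from 13 and 6 reads to 27 and 20 (1.09, adjusted p = 0.0339), and lost this call without untreated library B (0.253) or 8AA library A (0.114), while it passed without 8AA library B (1.17, adjusted p = 0.0443). HIST1H3C fell with 8CA in KG-1a, from 9 and 12 reads to 3 and 4 (−1.67, adjusted p = 0.0365). Among H4 genes, HIST1H4C fell with 8AA in MV4-11, from 14 and 15 reads to 3 and 3 (−2.24, SE 0.62, adjusted p = 0.0133), and HIST1H4A fell with 8CA in MV4-11 (−1.14, adjusted p = 0.0422). Leaving out any 1 of the 4 libraries compared ended the calls of HIST1H3C (adjusted p = 0.0532 to 0.186) and HIST1H4C (0.0526 to 0.0886), and HIST1H4A did not pass without untreated library B (0.411), 8CA library A (0.161) or 8CA library B (0.11). In all of these 28 calls at 24 h the treated and untreated libraries did not overlap. This adds no support, since the genes were picked by a test of the same values. The share without overlap over all genes is not given here.

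Summed over all 69 genes, the level was slightly higher in treated libraries at 24 h. It was 51.9 ± 3.34 CPM in untreated MV4-11, 60.7 ± 2.25 with 8CA and 62.7 ± 2.73 with 8AA (SD, n = 2), which is 1.17 and 1.21 times the untreated mean. In KG-1a it was 34.8 ± 2.42 untreated, 37.9 ± 0.802 with 8CA and 39.0 ± 1.59 with 8AA, or 1.09 and 1.12 times. In these 4 comparisons the libraries did not overlap. The last ratio was 1.15 without 8AA library A and 1.09 without B. In MV4-11 the higher sum rested on a pair of genes: leaving HIST1H2BK and HIST3H2A out, it was 35.7 ± 1.82 CPM untreated, 30.8 ± 0.121 after 8CA and 33.1 ± 1.47 after 8AA, or 0.861 and 0.927 times, lower without overlap. In KG-1a the ratios were then 1.07, where libraries overlapped, and 1.12. This choice was made after the values were seen.

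The families differed in their sums. The summed H2A level was 1.57, 1.39, 1.40 and 1.42 times untreated for 8CA and 8AA in MV4-11 and then in KG-1a. Leaving HIST3H2A and HIST1H2AC out, the H2A ratios were 0.672 and 0.847 in MV4-11, without overlap, and 0.94 and 0.959 in KG-1a, where libraries overlapped. The H2B level was 1.24, 1.33, 1.05 and 1.16 times untreated. In MV4-11 the H2B sum was 27.3 CPM untreated, 33.8 with 8CA and 36.3 with 8AA. HIST1H2BK alone made up 12.5 and 13.8, 20.2 and 22.0, and 24.2 and 23.1 CPM of it in libraries A and B. This gene rose by more than the H2B sum there, and the H2B ratios without it are not given here. The H1 ratios were 0.884, 0.887, 1.2 and 0.826, with an overlap in the third, and those of H3 were 0.834, 1.02, 0.826 and 1.36, with an overlap in both of MV4-11. The H4 level was 0.699, 0.834, 0.965 and 0.856 times untreated, and only the first was without overlap. For KG-1a 8AA the ratios without library A and B were 1.41 and 1.43 for H2A, 1.2 and 1.13 for H2B, 1.41 and 1.31 for H3 and 0.955 and 0.756 for H4.

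Split by the annotated poly(A) signal, 16 tested genes had one and 16 did not. The summed level of all genes with the signal was 1.31, 1.24, 1.29 and 1.54 times untreated at 24 h, in the same order, and the libraries did not overlap in any of the 4. For the genes without it the ratios were 1.09, 1.19, 0.986 and 0.908, and in KG-1a the libraries overlapped. In MV4-11, HIST1H2BK alone made up 12.5 and 13.8 CPM of the sum without the signal in untreated libraries A and B. It made up 20.2 and 22.0 CPM with 8CA, and 24.2 and 23.1 with 8AA. This gene rose by more than that sum with both drugs, so the other genes without the signal were together lower there. The ratios without HIST1H2BK are not given here. Leaving HIST3H2A and HIST1H2AC out of the genes with the signal, the ratios were 0.93, 1.01, 1.13 and 1.39, with an overlap in the second. Without library A or B of KG-1a 8AA, the ratio with the signal was 1.54 and 1.53, and without the signal 0.955 and 0.862. The median log2 fold change at 24 h was −0.05, 0.23, 0.14 and 0.63 with the signal and −0.93, −0.61, −0.11 and −0.06 without. Of the 7 genes that rose in at least 1 comparison, 5 have the signal, and of the 10 that fell 1 has it, HIST1H2BH. HIST1H2BK, which rose in MV4-11, and HIST1H1D, which rose in KG-1a, are without it on this annotation. Several genes without it have only short annotated transcripts that hold no stem-loop either: HIST1H2BK 381 bases, HIST1H2AM 393, HIST1H4A 312 and HIST2H2AC 390. The split thus also sorts genes by how far their annotation runs. The split was drawn from the annotation with the changes already known, and the difference between the 2 sets was not tested.

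**Figure D4:**
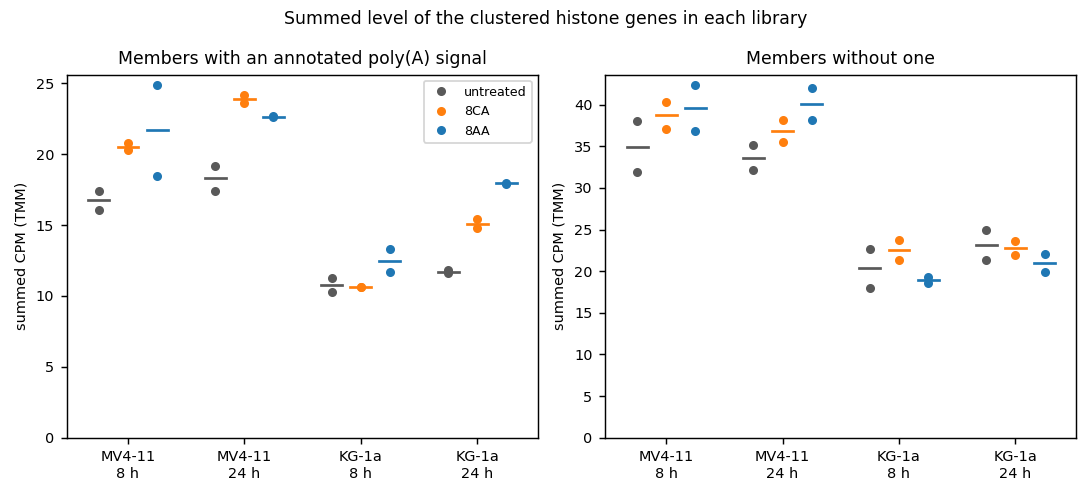
Summed CPM per library of clustered histone genes with and without an annotated poly(A) signal, in the 12 groups; points are libraries and bars the mean of 2. For genes with the signal, KG-1a goes from 11.7 CPM untreated to 18.0 with 8AA at 24 h.

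The 4 pairs with both partners tested are given here, described after their values were seen. HIST2H2BE rose in 3 of the 4 comparisons at 24 h while its partner HIST2H2AC, across the 235 bases printed above, fell in 2 and had negative values in all 4. HIST1H2AC rose in all 4, with 1.09, 1.5, 1.40 and 2.35, while its partner HIST1H2BC, whose promoter shares 245 bases with it, had values of −0.02, 0.48, −0.12 and −0.21 and was not called. In the other 2 pairs the only call was HIST1H2BG, which fell with 8CA in KG-1a. HIST1H2AE had 0.09, 0.7, −0.42 and −0.02 against 0.04, −0.3, −1.32 and −0.28 for HIST1H2BG. HIST1H2AG had −0.21, 0.63, 0.29 and 0.43, and its partner HIST1H2BJ −0.08, −0.01, 0.14 and 0.59. The difference between partners was not tested in any pair.

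At 8 h fewer genes passed. In MV4-11, 8AA raised 4 genes and lowered 0, where 13.6% of all genes rose and 15.6% fell. The 4 were HIST1H2AC (1.26, adjusted p = 0.0101), HIST2H2BE (0.76, adjusted p = 0.0175), HIST3H2A (0.68, adjusted p = 0.011) and HIST1H2BK (0.34, adjusted p = 0.00711). HIST3H2A had 56 and 65 reads untreated and 83 and 126 with 8AA, and HIST1H2AC had 7 and 10 untreated and 22 and 22 with 8AA. Library B of the 8AA pair was higher for HIST3H2A and for HIST1H2BK (362 and 451 reads). Without untreated library A none of the 4 passed (adjusted p = 0.0503 to 0.083), and without 8AA library B HIST3H2A (0.139), HIST2H2BE (0.271) and HIST1H2BK (0.0544) did not pass.

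With 8CA at 8 h, 0 clustered histone genes passed in MV4-11, where 4.58% of all genes rose and 5.77% fell, and 0 in KG-1a, where 0.7% rose and 0.181% fell. DESeq2 also called 0 in both, and 2 genes in each line had an unadjusted p below 0.05. With 8AA at 8 h in KG-1a, where 16.7% of all genes rose and 18.0% fell, HIST1H1B was the 1 gene to fall. It had 27 and 32 reads untreated and 11 and 17 with 8AA (−1.30, SE 0.36, adjusted p = 0.0106). This call was lost without untreated library B (0.0603) or 8AA library A (0.0945).

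Between untreated cells at 8 h and 24 h, edgeR called 0 histone genes in MV4-11, where 5.54% of all genes passed in either direction, and 0 in KG-1a, where 4.45% did. DESeq2 also called 0, and 1 gene in each line had an unadjusted p below 0.05.

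The change from untreated differed between the times for some genes. With 8CA in MV4-11, 2 genes changed more upward at 24 h than at 8 h and 2 more downward (16.3% of all genes differed in either direction). HIST3H2A differed by 1.04 (adjusted p = 0.0112), HIST1H2BK by 0.61 (0.00334), HIST1H2BH by −1.58 (0.014) and HIST1H2AM by −1.51 (0.0353). HIST3H2A did not pass without untreated 24 h library A (0.052), HIST1H2BH without untreated 24 h library B (0.0645) or 8CA 24 h library B (0.0694), and HIST1H2AM without any 1 of 6 libraries (0.0552 to 0.133). With 8AA in MV4-11, 1 differed upward and 1 downward (4.63% of all genes). With 8CA in KG-1a, 2 differed upward and 1 downward (23.9%), which were HIST1H3C (−3.16, adjusted p = 0.0256), HIST3H2A (1.77, adjusted p = 0.0073) and HIST1H2AC (2.82, adjusted p = 0.0137). HIST1H3C had 4 and 1 reads untreated and 11 and 4 with 8CA at 8 h, and 9 and 12 against 3 and 4 at 24 h. The calls of HIST1H3C and HIST3H2A did not hold without each library in turn. HIST1H3C lost its call without any 1 of 5 libraries, at −3.42 to −2.34, and HIST3H2A without untreated 8 h library B, at 1.49. The 8 h reads of HIST1H2AC were 12 and 9 untreated and 2 and 6 with 8CA, and its difference did not pass without any 1 of 4 libraries (0.0543 to 0.0732). With 8AA in KG-1a, 2 differed upward and 0 downward (18.3%).

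8CA and 8AA were then compared with each other at the same dose and time, over 4 comparisons. In MV4-11 at 24 h, HIST3H2A was the 1 gene of 29 that differed, lower with 8AA by 0.59 on the log2 scale (95% interval −0.89 to −0.28, adjusted p = 0.00888), where 21.2% of all genes differed. This call was lost in DESeq2 (adjusted p = 0.0535), without 8CA library B (0.0729) and without 8AA library B (0.0825). HIST2H2BE differed by −0.49 (−0.85 to −0.13, adjusted p = 0.0509) and did not pass. The intervals of HIST1H2AC (−0.04 to 0.87), HIST1H2BK (−0.00 to 0.33) and HIST1H2BH (−0.69 to 0.97) reached 0 or crossed it, so a difference was not detectable at this depth. At 8 h in MV4-11, 0 genes differed, where 6.66% of all genes did. DESeq2 also called 0, and 2 genes had an unadjusted p below 0.05.

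In KG-1a at 24 h, 3 genes were higher and 3 lower with 8AA than with 8CA, where 42.0% of all genes differed. The lower ones were the linker histone genes HIST1H1D (−1.37, adjusted p = 0.0416), HIST1H1B (−1.02, 0.0125) and HIST1H1E (−0.92, 0.0149). HIST1H1D had 12 and 15 reads with 8CA and 7 and 4 with 8AA, and HIST1H1B had 33 and 51 after 8CA against 19 and 25 after 8AA. The higher ones were HIST1H3E (1.06, 0.0404), HIST1H2AC (0.95, 0.0285) and HIST1H3H (0.84, 0.0111), the last with 29 and 31 reads with 8CA and 54 and 60 with 8AA. In all 6 the libraries did not overlap, which adds no support for genes picked by a test of the same values. Without 8AA library A, HIST1H1D (adjusted p = 0.0616), HIST1H1B (0.104), HIST1H1E (0.0742) and HIST1H3E (0.133) did not pass, and without 8AA library B, HIST1H1D (0.144), HIST1H2AC (0.169) and HIST1H3H (0.0766) did not. Without 8CA library A 1 gene passed, HIST1H1B, and without 8CA library B 2, HIST1H1E and HIST1H3H. HIST3H2A differed by −0.52 (95% interval −0.96 to −0.07, adjusted p = 0.0578) and did not pass. At 8 h, HIST1H1D was lower with 8AA (−2.31, adjusted p = 0.0114) and HIST1H2AC higher (1.75, adjusted p = 0.0215), where 30.4% of all genes differed. HIST1H1D had 16 and 7 reads with 8CA and 4 and 1 with 8AA, and HIST1H2AC had 2 and 6 with 8CA and 14 and 17 with 8AA. Without 8CA library A neither passed (adjusted p = 0.175 and 0.215), without 8AA library B neither (0.117 and 0.103), and without 8AA library A HIST1H2AC did not (0.0555).

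Changes at 24 h were also compared between the lines. For 8CA, 1 gene changed more upward in KG-1a than in MV4-11 and 1 more downward (11.2% of all genes differed), and for 8AA, 1 and 2 (22.3%). HIST1H2BK, given above, was the gene that differed with both drugs. For 8CA the other gene was HIST1H2AM (1.66, adjusted p = 0.0459). For 8AA they were HIST1H4C (2.19, adjusted p = 0.0316) and HIST4H4 (−3.12, adjusted p = 0.0245), whose KG-1a reads were 6 and 7 untreated and 1 and 2 with 8AA. Without KG-1a 8AA library A, HIST1H4C (adjusted p = 0.131) and HIST4H4 (0.0993) did not pass, and other single libraries also ended these calls (up to 0.131 and 0.197) and that of HIST1H2AM (up to 0.222).

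Untreated at 24 h, more clustered histone genes were lower than higher in KG-1a against MV4-11. Of 33 tested, 10 were lower and 3 higher in KG-1a, while 41.0% of all genes were higher and 41.0% lower. The lower ones include the leading genes HIST1H2BK (−0.85, adjusted p = 5e-08), HIST3H2A (−2.00, adjusted p = 1.81e-07), HIST1H1C (−0.88, adjusted p = 0.000124) and HIST1H2BH (−1.04, adjusted p = 0.00239). HIST1H2AC (−1.34), HIST2H2AC (−1.08), HIST2H2BC (−1.92), which is annotated as a pseudogene, and HIST1H2AM (−0.97) were lower as well. Without KG-1a library B, HIST1H2AC (adjusted p = 0.0737) and HIST1H2AM (0.116) did not pass, nor HIST1H2AM without MV4-11 library A (0.141), nor HIST2H2AC without MV4-11 library B (0.0945) or KG-1a library A (0.191). HIST1H2BM had 23 reads over the untreated MV4-11 libraries and 0 in KG-1a, at least 7.22-fold lower with a floor of 3 reads over the group. The lines were not compared by a test at 8 h. The untreated reads of HIST1H2BM at 8 h were 3 and 5 in MV4-11 and 6 and 3 in KG-1a. Those of HIST1H2AC were 7 and 10 against 12 and 9, so no lower level in KG-1a was seen for these genes at 8 h. HIST1H2BK, HIST3H2A, HIST1H1C and HIST1H2BH were lower in both untreated KG-1a libraries at 8 h too. HIST1H3H (1.31) and HIST1H4I (1.98) were higher in KG-1a, the latter not without MV4-11 library A (0.106) or KG-1a library B (0.0899), and HIST1H3E had 19 reads against 1, a ratio of 20.2 (95% counting interval 3.21 to 838). Intervals and floors cover counting error only.

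HIST2H2BF had 69 reads over the untreated MV4-11 libraries at 24 h and 0 in KG-1a, at least 21.7-fold lower with the same floor, and was at 0 in 11 of the 12 KG-1a libraries. It overlaps FCGR1A, a receptor gene of myeloid cells on the opposite strand. FCGR1A stood at 16.1 to 23.6 CPM in MV4-11 and 0.249 to 0.783 in KG-1a. Whether strand was used in counting is unknown here, and reads of the 2 genes cannot be told apart, and the part of FCGR1A in this difference was not tested.

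The genes that make, process and bind histones were read beside these changes, from lists written from general knowledge. In the order of 8CA and 8AA in MV4-11 and then in KG-1a, 22.7%, 15.3%, 24.0% and 26.6% of all genes fell at 24 h. The shares that rose were 21.2%, 13.9%, 23.4% and 25.4%, and the 24 h counts below are to be read against these shares. Of the 18 genes of the DNA replication and S phase list, 17, 18, 16 and 15 fell and 0, 0, 1 and 1 rose, with medians of −0.52, −0.39, −0.32 and −0.27. In all 4 comparisons 14 of them fell, including the ribonucleotide reductase gene RRM2 (−0.51, −0.61, −0.33 and −0.48), CCNE1, the cyclin of S phase entry (−0.88, −0.49, −1.09 and −1.02), PCNA and the helicase genes MCM2, MCM3, MCM4, MCM5 and MCM7. The share of all genes that fell in all 4 is not given here, for this list or those below. It cannot be had from the shares above, because both drugs share the untreated libraries. Without library A or B of KG-1a 8AA, 16 and 13 fell and 1 rose. At 8 h, in the same order, 6, 14, 0 and 3 of the list fell and 1, 0, 0 and 4 rose, with medians of −0.06, −0.31, −0.01 and 0.06. Of all genes, 5.77%, 15.6%, 0.181% and 18.0% fell at 8 h and 4.58%, 13.6%, 0.7% and 16.7% rose. The part of these changes in the histone values was not tested.

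SLBP, the protein that binds the histone stem-loop, fell in all 4 comparisons at 24 h, by 0.40, 0.37, 0.29 and 0.37 on the log2 scale. Of the 10 genes of histone 3′ end processing, 3, 5, 4 and 7 fell and 1, 0, 2 and 0 rose, with medians of −0.10, −0.16, −0.05 and −0.22. NPAT, the coactivator of histone transcription, had values of 0.10, −0.15, 0.25 and 0.08 and rose only in KG-1a with 8CA among these 4, as did LSM11 (0.05, −0.16, 0.33 and −0.12), a subunit of the U7 particle. CASP8AP2 had values of −0.06, −0.18, 0.19 and 0.11, falling with 8AA in MV4-11 and rising with 8CA in KG-1a. Of the 4 transcription factor genes, 1, 0, 3 and 1 rose and 0, 1, 0 and 0 fell, with medians of 0.04, −0.04, 0.22 and 0.11. Of the 5 decay genes, 3, 1, 1 and 1 rose and 1, 0, 1 and 1 fell, with medians of 0.19, −0.10, 0.06 and −0.06. Of the 12 histone chaperone genes, 6, 7, 6 and 5 fell and 0, 0, 1 and 2 rose (medians −0.20, −0.28, −0.14 and −0.12), and CHAF1B, NASP, SSRP1 and SUPT16H fell in all 4. Without library A of KG-1a 8AA, 4 transcription factor genes rose and 7 chaperone genes fell, and without library B 1 and 4.

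The replication-independent histones, whose mRNAs are polyadenylated, had calls in both directions. Of the 11 tested in MV4-11, 6 fell and 3 rose with 8CA and 4 fell and 0 rose with 8AA. Of the 9 tested in KG-1a, 6 fell and 1 rose with 8CA and 3 fell and 3 rose with 8AA. Their medians were −0.16, −0.13, −0.26 and −0.01. H2AFZ fell in all 4 comparisons (−0.71, −0.53, −0.26 and −0.43), and so did H3F3B, a gene of histone H3.3 (−0.16, −0.24, −0.20 and −0.36). In the same libraries in which HIST3H2A and HIST1H2AC rose, the far more abundant H2AFZ was lower.

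**Figure D5:**
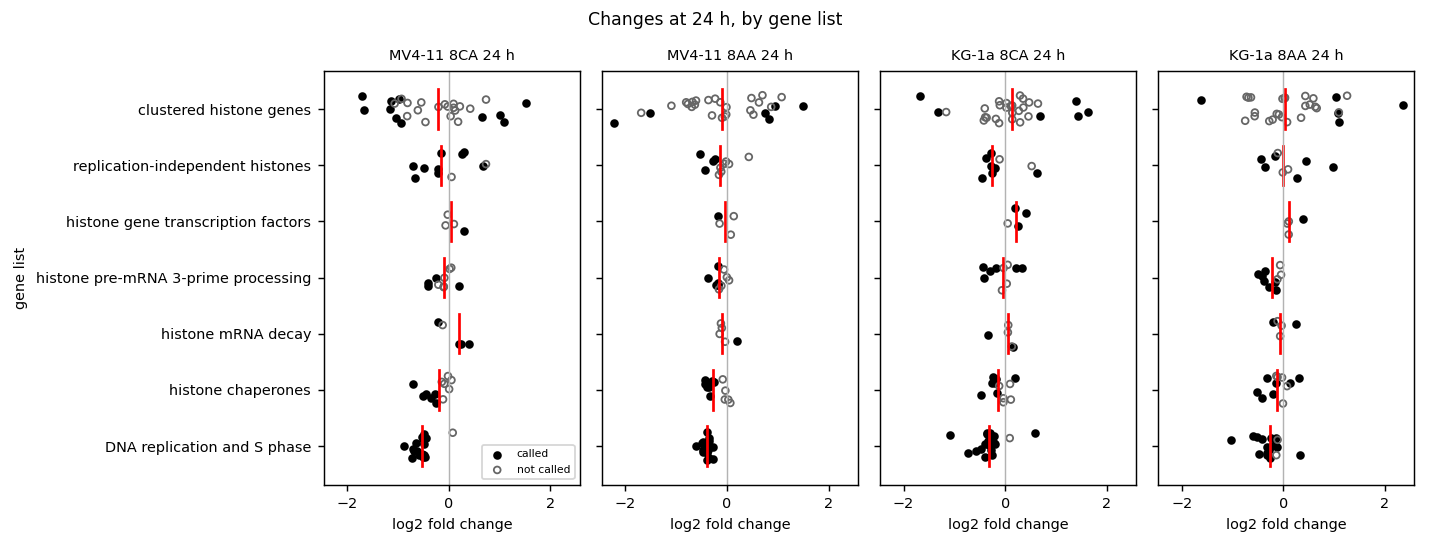
Log2 fold change at 24 h of the clustered histone genes and of the other gene lists in the 4 comparisons; filled points passed an adjusted p of 0.05 and the red line is the median. The DNA replication and S phase list has medians from −0.52 to −0.27, while the clustered histone genes spread to both sides of 0.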

How the data were processed

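Total RNA of 24 libraries was extracted by the study with the QIAGEN RNeasy Micro Kit. The deposited values are raw read counts per gene, which the authors made with no normalization. The submitters' processing notes name Trimmomatic, STAR 2.6.0, HTSeq 0.11.1 and edgeR and the builds hg19 and hg38. For library selection, strand use and the annotation, the answer is not given in the sources used here. Reads of near-identical histone copies, overlapping genes and antisense partners may have been split, shared or lost. Groups came from the labels, with the hours of untreated libraries from the titles.

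From the counts, genes were filtered with filterByExpr (minimum count 10) and libraries were scaled by TMM. A quasi-likelihood model (edgeR 4.0.16, R 4.3.3) was fitted with 1 coefficient per group to the 12 libraries of each line (12800 genes in MV4-11 and 12711 in KG-1a), or to all 24 for comparisons of lines (14055 genes). Over 21 comparisons, p-values were adjusted by the Benjamini-Hochberg method over all genes tested and called below 0.05. The same script was tested on simulated counts. DESeq2 1.42.0, other scalings and filters, a replicate block and leaving out each library were the alternatives. Library totals were 18633963 to 24520078 counts, and with 2 libraries per group the precision rests on the shared spread (biological coefficient of variation 0.0418 to 0.0422). No replicate pair agreed within counting noise.

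The histone genes and the other gene lists were chosen with earlier results of these data known. Values per library were given for the 6 genes highest per kb, those called alike in all 4 comparisons at 24 h and the 3 that differed most between drugs, with the 2 largest rises and falls of each comparison. Further genes and per-library values, such as those of HIST2H2BE and HIST2H2AC, were added after their values were seen. Transcripts came from GENCODE release 29 and promoters from RefSeq (GRCh38.p14). Of the 69 genes, all were matched to transcripts by gene identifier or symbol and 58 to a promoter.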

Additional observations from a re-analysis of the deposited data

Results flagged for a closer look

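The change against untreated cells differed between 24 h and 8 h, by the interaction term of the edgeR fit, for 11 values, which are given as 24 h minus 8 h on the log2 scale. With 8CA in MV4-11 the difference was −1.51 for HIST1H2AM (adjusted p = 0.0353), −1.58 for HIST1H2BH (0.014), 0.61 for HIST1H2BK (0.00334) and 1.04 for HIST3H2A (0.0112). With 8AA in MV4-11 it was −1.46 for HIST1H2BH (adjusted p = 0.0491) and 0.48 for HIST1H2BK (0.0331). With 8CA in KG-1a it was 2.82 for HIST1H2AC (adjusted p = 0.0137), −3.16 for HIST1H3C (0.0256) and 1.77 for HIST3H2A (0.0073). With 8AA in KG-1a it was 2.03 for HIST1H2AC (adjusted p = 0.0363) and 1.07 for HIST2H2BE (0.0235).

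The 24 h change differed between the lines for 5 values, given as KG-1a minus MV4-11. For 8CA it was 1.66 for HIST1H2AM (adjusted p = 0.0459) and −0.79 for HIST1H2BK (0.000598). For 8AA it was −0.82 for HIST1H2BK (adjusted p = 0.000124), 2.19 for HIST1H4C (0.0316) and −3.12 for HIST4H4 (0.0245). The reads of HIST4H4 were at most 20 in any library. Of these 16 values, 3 passed without each library in turn, those of HIST1H2BK with 8CA between times and with both drugs between lines. Groups of 2 libraries are too small for a search for outlying samples.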

How the results depend on the processing

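Of 71 called values of clustered histone genes, 24 passed under every alternative that gave them a value, among them HIST3H2A in all 4 comparisons at 24 h, HIST1H2BK and HIST1H2BH in MV4-11 with both drugs at 24 h, and HIST1H2AC with 8AA at 24 h in both lines. Under other scalings, filters and tests 340 of 373 values stayed past the threshold, 33 did not and 0 reversed, and DESeq2 gave no adjusted p for 19 more. Without 1 library 197 of 348 stayed past it, 151 did not and 0 reversed. Depth limits what can be read, since the 37 genes tested in neither line's own fit never exceeded 13 reads in a library. The cause of each move was not tested, except that a stricter filter leaves fewer genes.

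The counts of called genes moved as follows. With library size as the only scaling, MV4-11 8CA at 24 h gave 7 instead of 11, 8AA against 8CA at 24 h in MV4-11 gave 2 instead of 1, the same at 8 h gave 1 instead of 0, and the MV4-11 8AA difference between times gave 1 instead of 2. With DESeq2 size factors, 8AA against 8CA in MV4-11 gave 2 at 24 h and 1 at 8 h. With no filter, 8AA against 8CA in MV4-11 gave 2 at 24 h and 1 at 8 h, the MV4-11 8CA difference between times 7 instead of 4, KG-1a 8CA at 24 h 3 instead of 6, KG-1a 8AA at 8 h 3 instead of 1, 8AA against 8CA in KG-1a at 8 h 5 instead of 2, the KG-1a 8AA difference between times 4 instead of 2, and the 8CA difference between lines 5 instead of 2. With at least 10 counts in every library, MV4-11 8CA at 24 h gave 6, 8AA against 8CA in MV4-11 2 at 24 h and 1 at 8 h, KG-1a at 24 h 2 with 8CA and 3 instead of 5 with 8AA, the KG-1a differences between times 1 each, the differences between lines 1 each, and untreated KG-1a against MV4-11 5 instead of 13. With the DESeq2 Wald test, MV4-11 8CA at 24 h gave 4, MV4-11 8AA at 8 h 2 instead of 4, 8AA against 8CA at 24 h 0 in MV4-11 and 1 instead of 6 in KG-1a, the same at 8 h in KG-1a 0, the MV4-11 differences between times 2 with 8CA and 0 with 8AA, KG-1a at 24 h 1 with 8CA and 3 with 8AA, the KG-1a differences between times 0 each, and the differences between lines 1 each.

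The libraries carry letters A and B in every group, but the deviations of libraries with the same letter correlated above 0.1 in 8 of 15 pairs in MV4-11 and 5 of 15 in KG-1a, with medians of 0.173 and 0.0354. Since not every pair did, the letters were not taken to pair the libraries, though a weak pairing in MV4-11 is not excluded by this. A fit with the replicate block gave 11 calls for 8CA and 7 for 8AA in MV4-11 at 24 h and 6 and 7 in KG-1a. With the block, 8AA against 8CA in MV4-11 gave 3 at 24 h and 1 at 8 h, and the 8CA difference between lines 1.

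Leaving out 1 library at a time gave 6 to 8 genes for MV4-11 8CA at 24 h, 4 to 5 for 8AA at 24 h, 0 to 3 for 8AA at 8 h, 0 to 1 for 8AA against 8CA at 24 h, 3 to 4 for the 8CA and 0 to 1 for the 8AA difference between times. In KG-1a it gave 1 to 4 for 8CA and 4 to 5 for 8AA at 24 h, 1 to 2 for 8AA at 8 h, 1 to 4 for 8AA against 8CA at 24 h and 0 to 2 at 8 h, and 1 to 4 and 0 to 2 for the 8CA and 8AA differences between times. It gave 1 to 2 and 1 to 3 for the 8CA and 8AA differences between lines and 12 to 13 for untreated KG-1a against MV4-11. Where an arm was left with 1 library, it was assumed to vary like the other groups. MV4-11 8CA at 24 h gave 6 without untreated library B, MV4-11 8AA at 8 h 0 without untreated library A, and KG-1a 8CA at 24 h 1 without untreated library B.

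The median log2 fold change moved with the filter, which sets the genes it covers. With no filter it was −0.59 instead of −0.21 for MV4-11 8CA at 24 h, −0.26 instead of −0.10 for MV4-11 8AA at 24 h, 0.14 instead of 0.36 for MV4-11 8CA at 8 h and 0.02 instead of 0.14 for KG-1a 8CA at 24 h. With at least 10 counts in every library it was 0.11 for MV4-11 8CA at 24 h, 0.36 for 8CA and 0.36 for 8AA in KG-1a at 24 h, 0.00 for 8CA and −0.05 for 8AA in KG-1a at 8 h. With library size as the only scaling it was 0.13 for KG-1a 8AA at 24 h, and the summed level there was 1.20 times untreated instead of 1.12. Leaving HIST1H2BK and HIST3H2A out of the sum, a choice made after seeing the data, turned the summed level in MV4-11 at 24 h to 0.861 times untreated for 8CA instead of 1.17 and 0.927 for 8AA instead of 1.21. Scaling by library size moved the median of all genes by over 0.1 in 1 comparison, untreated KG-1a against MV4-11, by 0.109.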
